A study of Homo sapiens with 4 samples.

Results

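The contact maps of 9 genes whose products silence transposable elements were examined after stable knockdown of TDP-43, an RNA- and DNA-binding protein, in the established neuroblastoma line SH-SY5Y. The genes were TRIM28, SETDB1, ATF7IP, EHMT1, EHMT2, SUV39H2, TASOR, MPHOSPH8 and MORC2. A bin pair was taken for a gene when at least 1 of its 2 bins of 50 kb overlapped the gene body on hg38. This gave 71 of the 89239 listed pairs, 21 within a bin and 50 between different bins, at 8 of the 9 genes. EHMT2, at chr6:31879759-31897698, had no listed pair and was not analysed here. By comparison, 18699 protein-coding genes overlapped at least 1 listed pair.

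Contacts were measured by Micro-C, which cuts fixed chromatin with micrococcal nuclease, joins ends that lie near each other and counts the joined fragments by sequencing. The knockdown group held 2 libraries of cells carrying a lentiviral construct that makes the short hairpin RNA shTDP-43 from a U6 promoter. The control group held 2 libraries labelled control, and the protocol names a matching shNC hairpin. Per the labels, selection of the stable line lasted 2 weeks in 2 µg/mL puromycin, and the maintenance medium held 1 µg/mL. The labels do not say whether a line is 1 clone or a pool, nor what the word merged in the library titles refers to. Nothing in the labels says that libraries came from separate cultures, so every p-value measures only the spread between these libraries, which may be technical. A contact map holds no RNA levels, so neither the knockdown nor the cell type could be checked against a transcript. The listed pairs held 115168160 and 142424414 contacts in the knockdown libraries and 158400914 and 163147992 in the control libraries.

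Many transposable elements of human cells are kept silent by methylation of lysine 9 of histone H3. KRAB zinc finger proteins bind particular elements and recruit the scaffold TRIM28, which brings in the methyltransferase SETDB1, and ATF7IP keeps SETDB1 stable and nuclear. EHMT1, EHMT2 and SUV39H2 are further methyltransferases of the same residue, and the HUSH complex, built on TASOR and the methyl-lysine reader MPHOSPH8, acts with the ATPase MORC2 on young LINE-1 elements and other long intronless insertions.

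Contacts within a bin covered a wide range of levels among the 8 genes. The level was taken as CPM, the count scaled to the size of its library, per 50 kb bin of the gene body, which makes it a value per length. Library sizes were scaled by TMM, which sets the libraries level over most pairs. Counts were not adjusted for differences between loci, such as copy number, and what these add to the levels was not tested. The level belongs to whole bins, of which TRIM28 covers only 5937 and 715 bases. TRIM28 was highest, with 55.4 and 57.3 CPM per bin in the knockdown libraries, against 65.6 and 71.9 CPM in the control libraries. ATF7IP was lowest, with 5.64 and 5.19 CPM per bin in the knockdown libraries, against 6.13 and 5.90 CPM in the control libraries. The control order ran from TRIM28 through SETDB1, EHMT1, MORC2, MPHOSPH8, SUV39H2 and TASOR to ATF7IP. Among neighbours in that order, only MORC2 and MPHOSPH8 overlapped between control libraries, and none overlapped between knockdown libraries, where MORC2 was the higher of that pair. The list held the more abundant pairs only, so a gene with few listed partners, such as TASOR with 0 pairs between bins, is one whose other pairs were not analysed here.

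**Figure D1:**
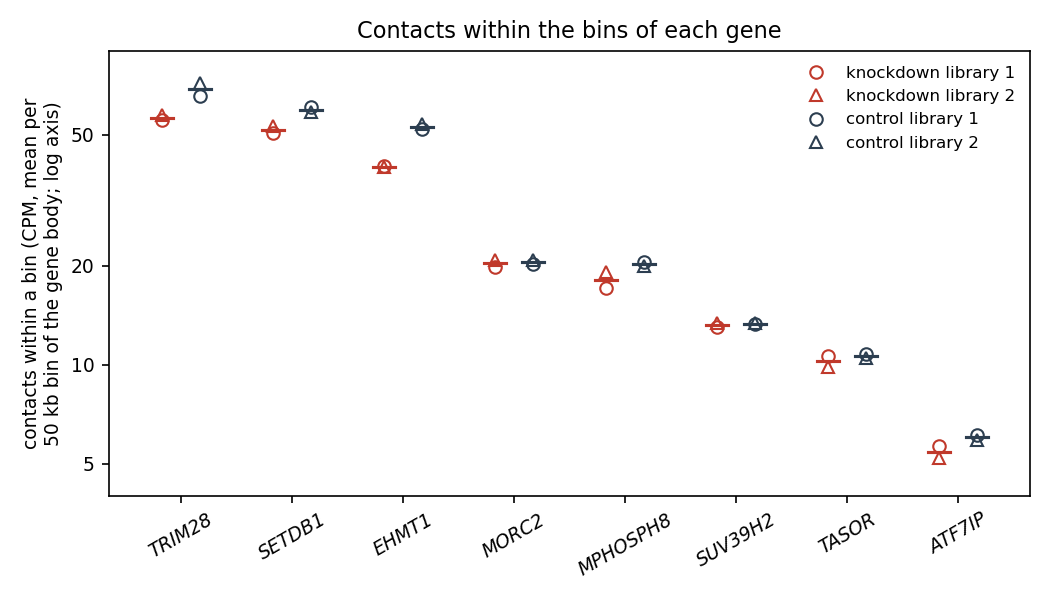
Contacts within the bins of each gene, as the mean CPM per 50 kb bin of the gene body on a log axis. Circles and triangles are libraries 1 and 2, knockdown left of control, and bars are the mean of the 2 libraries. TRIM28, SETDB1, EHMT1, MPHOSPH8 and ATF7IP lie lower in both knockdown libraries than in both control libraries, and the SUV39H2 libraries lie between 13.0 and 13.4 CPM.

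Of the 71 pairs, 13 passed an adjusted p of 0.05 in edgeR's quasi-likelihood test with TMM scaling and Benjamini-Hochberg adjustment over all pairs, 3 higher and 10 lower in knockdown cells. That is 18.3% of them, beside 16.2% of all listed pairs, 5.76% higher and 10.5% lower. At least 1 such pair was found at 5 of the 8 genes, beside 57.4% of all genes, so the share of genes was near the background. On the log2 scale the fold change, knockdown over control, had a median of -0.05 over the 71 pairs and 0.02 over all pairs. Libraries of the groups did not overlap at 40 of the 71 pairs, 56.3% beside 56.1% of all pairs.

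Nearly all of the lower calls were within a bin, and the higher calls were between bins; a difference between these classes was not tested. Within a bin, 9 of 21 pairs fell and 0 rose, beside 14.3% lower and 7.4% higher among all pairs within a bin, and 5 of those 9 belong to EHMT1 alone. Between bins, 1 of 50 fell and 3 rose, beside 5.84% lower and 3.76% higher among all pairs between bins. The median for these genes was -0.14 on the log2 scale within a bin and 0.06 between bins, where all listed pairs had 0.02 in both classes. Neighbouring bins of 1 gene share their region and are not independent of each other.

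The fold change also moved with abundance across the whole list, and the most abundant pairs of the 9 genes lie where that trend runs down. The list was cut into 10 classes of equal size by abundance. In the most abundant class the 9 pairs of the silencing genes had a median log2 fold change of -0.29, and all pairs of the class -0.21. In the least abundant class the medians were -0.16 over 17 pairs of these genes and 0.10 over all pairs. A second scaling, which removes the trend with a loess fit per library, is close to the authors' own, whose deposited log2 fold changes it met within 0.00311. On this scaling 7 of the 71 pairs passed, 1 higher and 6 lower, which is 9.86% beside 10.9% of all pairs (4.98% higher and 5.96% lower). They were 7 of the 13 above, each in the same direction, beside 8.28% of all pairs that passed the same way under both scalings. They lie at 3 of the 8 genes, EHMT1, ATF7IP and MORC2, beside 37.7% of all genes with the trend removed. Within a bin, 5 of the 21 pairs then passed, all lower, beside 5.11% of all pairs within a bin. Among all pairs past the threshold, 35.5% were higher with TMM, 45.6% with the trend removed and 23.9% with DESeq2. Calls are therefore given under both scalings below.

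**Figure D2:**
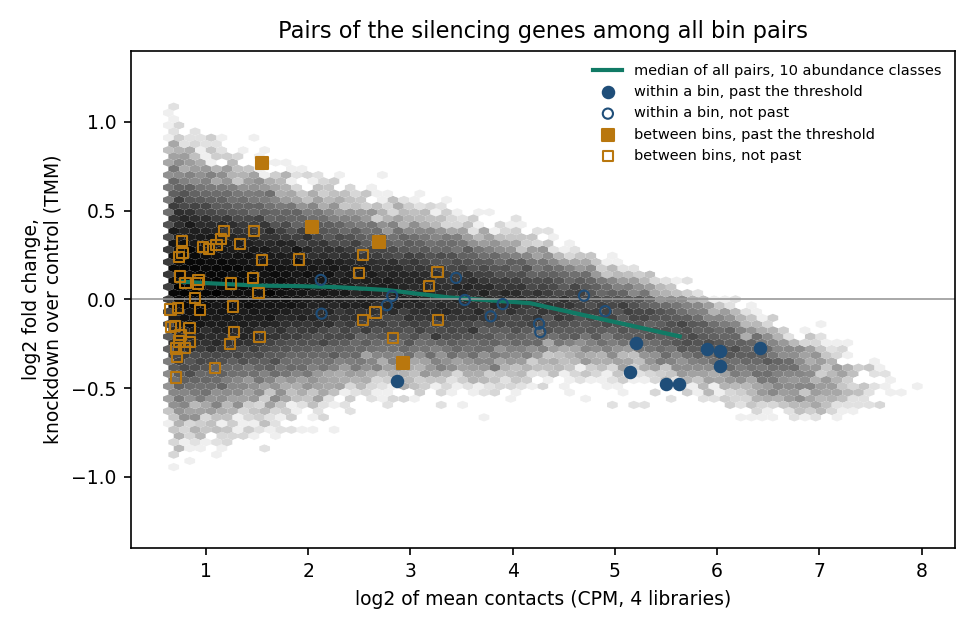
Log2 fold change with TMM, knockdown over control, against the log2 of the mean CPM over the 4 libraries, for all listed pairs (grey, darker where denser) and for the pairs of the silencing genes (blue circles within a bin, orange squares between bins, filled where past the threshold). The green line is the median of all pairs in 10 classes of equal size by abundance, which reaches -0.21 in the highest class, and 9 pairs of these genes sit in that class.

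**Figure D3:**
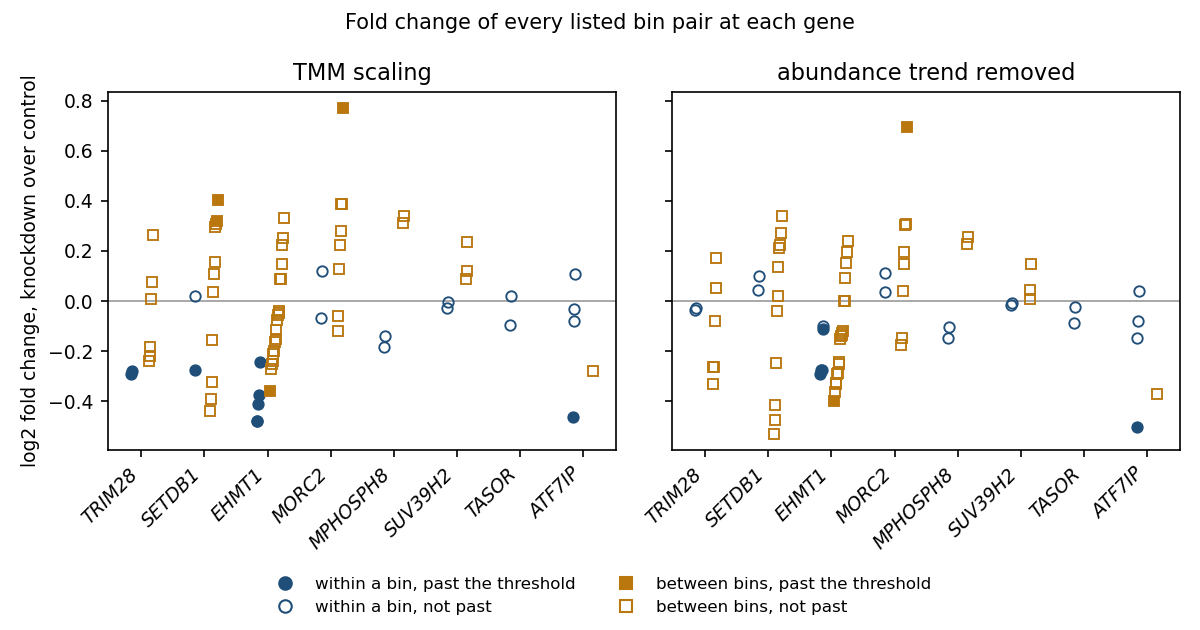
Log2 fold change, knockdown over control, of every listed pair at each gene, with TMM at left and with the abundance trend removed at right. Blue circles are pairs within a bin, orange squares pairs between bins, and filled symbols are past the threshold. The filled symbols number 13 at left and 7 at right, and those of TRIM28 and SETDB1 are open at right.

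TRIM28, the scaffold that KRAB zinc finger proteins recruit, lies at chr19:58544064-58550715, 0.049 Mb from the end of the last listed bin of the chromosome. Both of its bins fell with TMM. The bin chr19:58500001-58550000, which holds 5937 bases of the gene and also SLC27A5 and ZBTB45, had 52.8 and 55.3 CPM in knockdown libraries, against 61.9 and 69.5 CPM in control libraries. The bin chr19:58550001-58600000, with 715 bases of the gene beside CHMP2A, UBE2M and MZF1, had 58.1 and 59.3 CPM in knockdown libraries, against 69.3 and 74.4 CPM in control libraries. Every knockdown value lay under every control value in both bins. The log2 fold changes were -0.28 ± 0.06 and -0.29 ± 0.05 (SE), with edgeR adjusted p of 3.04e-05 and 9.29e-06. On the trend-removed scale they were -0.03 in each, with edgeR adjusted p of 0.655 and 0.701, and neither passed. Without knockdown library 1 the TMM call of the first bin was lost, with an edgeR adjusted p of 0.0796. None of the 6 pairs of TRIM28 with other bins passed, with log2 fold changes between -0.24 and 0.26. Of the 10 listed bins within 500 kb, all on the lower-coordinate side of the gene, 5 fell with TMM and 3 with the trend removed. Of the bins in the last 5 Mb of chromosome 19, 36.2% fell with TMM and 11.2% with the trend removed.

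SETDB1, which trimethylates lysine 9 of histone H3 at elements marked by TRIM28, lies at chr1:150926263-150964737 on the forward strand. Its 3′ bin fell with TMM and its start bin did not pass. The 3′ bin, chr1:150950001-151000000, also holds CERS2, ANXA9 and MINDY1, and had 74.5 and 80.3 CPM in knockdown libraries, against 95.3 and 91.8 CPM in control libraries. The knockdown libraries lay under both control libraries, and the log2 fold change was -0.27 ± 0.05 (SE, edgeR adjusted p = 4.25e-05). Removal of the trend turned the value to 0.05, which did not pass, with an edgeR adjusted p of 0.475. The TMM call was also lost without knockdown library 1, with an edgeR adjusted p of 0.171.

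The start bin of SETDB1, chr1:150900001-150950000, which also holds CTXND2, had 26.5 and 25.8 CPM in knockdown libraries, against 25.8 and 25.7 CPM in control libraries. These values lay close together, with a log2 fold change of 0.02 and an edgeR adjusted p of 0.872. CTXND2, at chr1:150887136-150913292, lies in both the start bin and the bin 50 kb upstream, which also overlaps ARNT. Contact between these 2 bins, the ARNT pair, rose with TMM. It had 4.78 and 4.57 CPM in knockdown libraries, against 4.01 and 3.04 CPM in control libraries, a log2 fold change of 0.41 ± 0.15 (SE, edgeR adjusted p = 0.0443). Contact between the 2 bins of the gene itself also rose, with 7.49 and 6.89 CPM in knockdown libraries, against 5.08 and 6.41 CPM in control libraries (log2 fold change 0.32, edgeR adjusted p = 0.0438). In both pairs the knockdown values lay above the control values. With the trend removed the log2 fold changes were 0.34 and 0.27, with edgeR adjusted p of 0.123 and 0.134, so neither passed. The ARNT pair was lost without knockdown library 1, knockdown library 2 or control library 2 (edgeR adjusted p of 0.329, 0.191 and 0.365). The pair within the gene was lost without knockdown library 1, knockdown library 2 or control library 1 (edgeR adjusted p of 0.405, 0.124 and 0.446). Single control libraries moved both values: the ARNT pair was at 0.60 without control library 1 and 0.22 without control library 2, and the pair within the gene at 0.15 without control library 1 and 0.50 without control library 2. The other 9 pairs between bins of SETDB1 lay between -0.44 and 0.31 on the log2 scale and did not pass.

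ATF7IP, the partner that protects SETDB1 from degradation, lies at chr12:14365682-14502930 on the forward strand and spans 4 bins. Its start bin fell under both scalings, and its other 3 bins did not pass. The start bin, chr12:14350001-14400000, holds no other protein-coding gene. It had 6.21 and 6.09 CPM in knockdown libraries (752 and 905 contacts), against 8.71 and 8.23 CPM in control libraries (1333 and 1267 contacts). Both knockdown libraries were lower than both control libraries, and the log2 fold change was -0.46 ± 0.11 (SE, edgeR adjusted p = 0.00064) with TMM and -0.50 (edgeR adjusted p = 0.000697) with the trend removed. With each library left out in turn, the TMM value stayed between -0.50 and -0.43, with edgeR adjusted p of at most 0.0376. On the trend-removed scale, leaving out knockdown library 2 raised the edgeR adjusted p to 0.0555. The other bins had log2 fold changes of -0.08, 0.11 and -0.03. Of 20 bins within 500 kb on either side, 1 rose and 2 fell with TMM, and 0 rose and 2 fell with the trend removed. Their TMM log2 fold changes ran from -0.26 to 0.50, with a median of 0.00. The start bin lay under all 20 of them. The single listed contact of ATF7IP with a bin outside it had a log2 fold change of -0.28 and did not pass (edgeR adjusted p = 0.443).

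The bases just upstream of the start are shown for ATF7IP and, for comparison, EHMT1, since these were the genes whose start bins passed under both scalings, that of EHMT1 with an edgeR adjusted p just under the threshold when the trend was removed. They are the 250 bases before each gene start from RefSeq on GRCh38.p14, chr12:14365432-14365681 (+) and chr9:137618755-137619004 (+), with every CpG in capitals.
ATF7IP: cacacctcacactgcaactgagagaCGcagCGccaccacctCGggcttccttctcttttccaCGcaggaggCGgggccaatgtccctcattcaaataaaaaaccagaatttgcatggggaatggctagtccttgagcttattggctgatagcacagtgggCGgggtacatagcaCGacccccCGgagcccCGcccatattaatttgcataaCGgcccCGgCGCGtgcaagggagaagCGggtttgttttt
EHMT1: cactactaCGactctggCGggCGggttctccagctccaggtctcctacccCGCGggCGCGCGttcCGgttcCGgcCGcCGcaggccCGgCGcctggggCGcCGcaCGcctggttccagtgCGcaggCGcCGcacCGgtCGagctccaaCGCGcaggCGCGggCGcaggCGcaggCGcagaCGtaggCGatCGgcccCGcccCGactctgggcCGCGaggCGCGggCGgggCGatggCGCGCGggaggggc
The ATF7IP window holds 14 CpG and the EHMT1 window 43, against a median of 11 over 34796 such windows. Among the other genes matched in the table, SETDB1 had 9, MPHOSPH8 26, MORC2 31, TASOR 37 and SUV39H2 38 CpG. The repeat TGTGTG, searched on both strands (CACACA on the other), was found in 1 of the 7 matched windows, that of MORC2, and in 14.3% of all windows. A match describes these letters only.

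EHMT1, which mono- and dimethylates lysine 9 of histone H3 together with EHMT2, lies at chr9:137619005-137836127 on the forward strand, 0.364 Mb from the end of the last listed bin of the chromosome. It had 24 of the 71 pairs. All 5 bins of the gene fell with TMM. Over the gene, contacts within a bin averaged 40.0 ± 0.297 CPM per bin in knockdown libraries and 52.9 ± 1.30 CPM in control libraries (SD, n = 2 each). The start bin, chr9:137600001-137650000, which also holds ARRDC1, had 57.8 and 55.6 CPM in knockdown libraries, against 71.7 and 75.2 CPM in control libraries. Its log2 fold change was -0.37 ± 0.05 (SE, edgeR adjusted p = 1.0e-08) with TMM, and -0.11 (edgeR adjusted p = 0.0494) with the trend removed. The authors' deposited table gives an adjusted p of 0.0505 for that bin, which misses the threshold. The trend-removed call was also lost without knockdown library 1 (edgeR adjusted p = 0.147), knockdown library 2 (-0.07, edgeR adjusted p = 0.586) or control library 2 (edgeR adjusted p = 0.0812). The next bin, chr9:137650001-137700000, had 32.9 and 34.8 CPM in knockdown libraries, against 41.0 and 39.2 CPM in control libraries. It passed with TMM (log2 fold change -0.24, edgeR adjusted p = 0.000473), but not with the trend removed (-0.10, edgeR adjusted p = 0.195) or, with TMM, without knockdown library 1 (edgeR adjusted p = 0.155).

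The 3 bins toward the 3′ end of EHMT1 passed under both scalings and under each of the 17 alternatives. These are not 17 separate checks. They include trend removal itself, the filter removed no pair, and the authors' values are close to the trend-removed fit. The bin chr9:137700001-137750000 had 30.4 and 30.3 CPM in knockdown libraries, against 41.3 and 39.5 CPM in control libraries, a log2 fold change of -0.41 (edgeR adjusted p = 1.34e-09). The bin chr9:137750001-137800000 had 41.9 and 40.8 CPM in knockdown libraries, against 56.9 and 58.4 CPM in control libraries, a log2 fold change of -0.48 (edgeR adjusted p = 6.23e-13). The bin chr9:137800001-137850000 had 38.1 and 37.4 CPM in knockdown libraries, against 48.7 and 56.6 CPM in control libraries, a log2 fold change of -0.48 (edgeR adjusted p = 1.98e-12). The groups were apart in each of these bins. With the trend removed, the log2 fold changes were -0.28, -0.27 and -0.29, with edgeR adjusted p of 1.96e-05, 7.2e-07 and 5.57e-07.

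Most bins around EHMT1 fell as well. Of 17 bins within 500 kb on either side, 15 fell with TMM, with a median log2 fold change of -0.47, and 14 fell with the trend removed, with a median of -0.20. In the last 5 Mb of chromosome 9, 97% of 100 bins fell with TMM and 57% with the trend removed. Between bins, 1 of the 19 pairs of EHMT1 passed, that of its last 2 bins, with 6.16 and 7.17 CPM in knockdown libraries, against 8.12 and 9.01 CPM in control libraries. Its knockdown values lay under the control values, and the log2 fold change was -0.36 (edgeR adjusted p = 0.0102) with TMM and -0.40 (edgeR adjusted p = 0.00903) with the trend removed. That call was lost without knockdown library 1 or without control library 2, with TMM edgeR adjusted p of 0.337 and 0.0986. The other 18 pairs lay between -0.27 and 0.33 on the log2 scale.

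**Figure D4:**
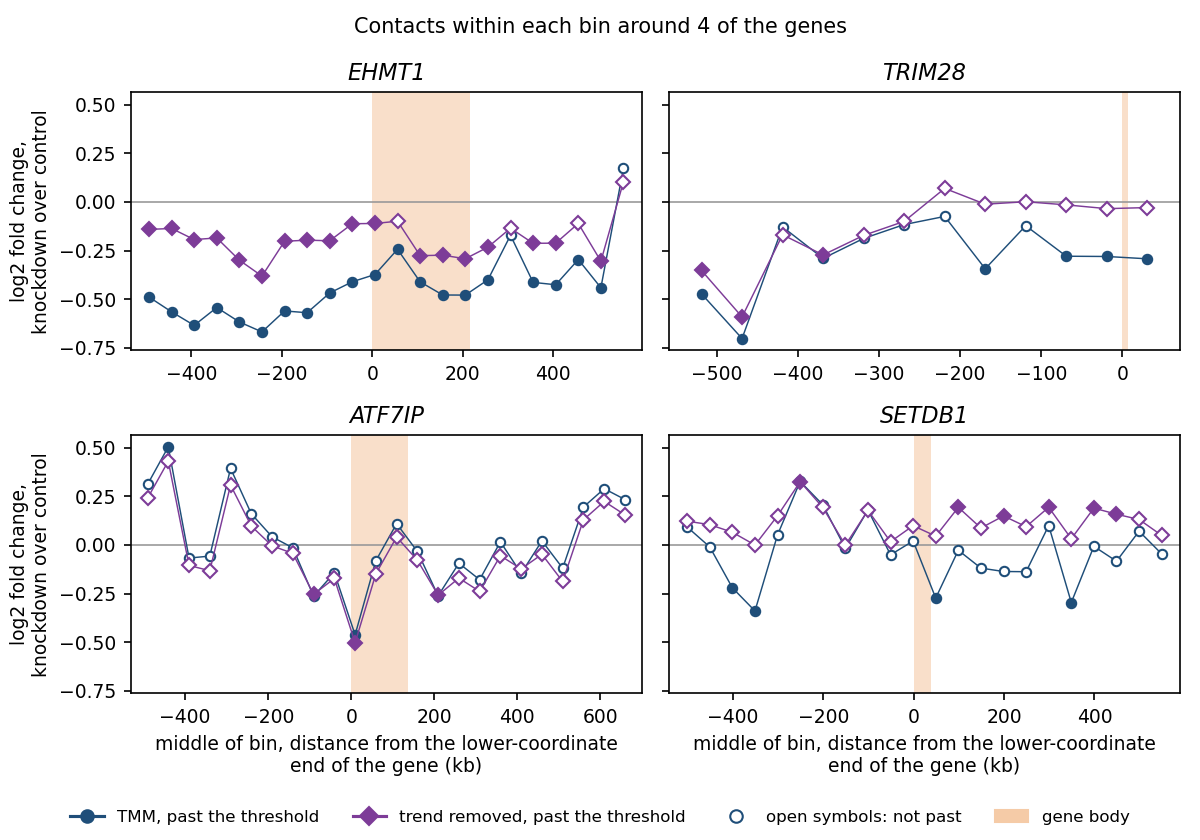
Log2 fold change of contacts within each 50 kb bin, knockdown over control, around EHMT1, TRIM28, ATF7IP and SETDB1, against the distance of the bin's middle from the lower-coordinate end of the gene in kb. Blue circles are TMM values and purple diamonds values with the trend removed, filled where past the threshold, and the gene body is shaded. EHMT1 and TRIM28 lie among other lower bins, and the ATF7IP start bin, at -0.46 with TMM, lies under every bin around it.

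SUV39H2, which trimethylates lysine 9 of histone H3 at repeats near centromeres, lies at chr10:14878866-14904315. None of its 5 pairs passed, with a smallest edgeR adjusted p of 0.521 and log2 fold changes between -0.03 and 0.24. Its start bin, chr10:14850001-14900000, shared with HSPA14 and DCLRE1C, had 14.3 and 15.3 CPM in knockdown libraries, against 14.9 and 15.3 CPM in control libraries. The libraries of the groups overlapped there. Of 20 bins within 500 kb on either side, 4 rose and 0 fell under each scaling.

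None of the pairs of the HUSH subunits TASOR and MPHOSPH8 passed under either scaling. TASOR, the scaffold of the complex, lies at chr3:56620132-56683265 on the reverse strand and had only its 2 bins in the list. Its start bin, chr3:56650001-56700000, had 14.1 and 12.6 CPM in knockdown libraries, against 14.4 and 14.1 CPM in control libraries (log2 fold change -0.10, edgeR adjusted p = 0.464). The other bin had a log2 fold change of 0.02. The bins around TASOR differed from this, since 6 of 20 within 500 kb rose with TMM, by up to 0.85 on the log2 scale, and 5 with the trend removed, and none fell under either.

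MPHOSPH8, whose chromodomain binds methylated lysine 9 of histone H3, lies at chr13:19633659-19673441. Its 3′ bin, chr13:19650001-19700000, had 16.8 and 19.2 CPM in knockdown libraries, against 20.9 and 20.2 CPM in control libraries. The knockdown libraries were lower, but the log2 fold change of -0.18 ± 0.07 (SE) missed the threshold, with an edgeR adjusted p of 0.0559. Its start bin had a log2 fold change of -0.14 (edgeR adjusted p = 0.177). Its 2 pairs between bins had log2 fold changes of 0.31 and 0.34, with edgeR adjusted p of 0.284 and 0.267.

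MORC2, an ATPase that compacts chromatin with the HUSH complex, lies at chr22:30925130-30968774 on the reverse strand. Of its 10 pairs, 1 passed, and it rose. It joins the bin with the 3′ end of the gene, chr22:30900001-30950000, to chr22:30750001-30800000, 150 kb away, and OSBP2, at chr22:30693782-30907813, lies in both bins. The pair had 4.42 and 2.97 CPM in knockdown libraries (535 and 442 contacts), against 1.96 and 2.36 CPM in control libraries (300 and 364 contacts). Both knockdown libraries lay above both control libraries, with knockdown library 1 well above the other. The log2 fold change was 0.77 ± 0.18 (SE, edgeR adjusted p = 0.000612) with TMM and 0.69 (edgeR adjusted p = 0.00329) with the trend removed. Without knockdown library 1 it was 0.46, with an edgeR adjusted p of 0.35, and the call was lost. The pair was the largest fold change among the 71. The 2 bins of MORC2 had log2 fold changes of -0.07 and 0.12 within the bin and did not pass, and its other pairs lay between -0.12 and 0.39. Of 20 bins within 500 kb on either side, 1 rose and 7 fell with TMM, and 3 rose and 0 fell with the trend removed. The bin that rose with TMM adjoins the partner bin of the called pair (0.38, and 0.43 with the trend removed). The partner bin itself was at 0.03 with TMM and 0.12 with the trend removed, and passed under neither.

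Contacts were also summed over all listed pairs of a gene and tested across all genes, with TMM on the sums. These values are centred on gene sums and not on pairs, so a gene whose bins lie near 0 on the pair scale can stand above 0 here. Within bins, 3 of 8 genes passed, beside 49% of all genes. TRIM28 fell by 0.16 on the log2 scale (edgeR adjusted p = 0.0072) and EHMT1 by 0.27 (edgeR adjusted p = 7.7e-06), and MORC2 rose by 0.11 (edgeR adjusted p = 0.0494). The TRIM28 sum lost its call without knockdown library 1 or 2 (edgeR adjusted p of 0.201 and 0.076), and the MORC2 sum without any 1 of the 4 libraries (between 0.0532 and 0.427). With the trend removed none of the 8 passed, beside 37.6% of all genes. TRIM28 was then at 0.01, EHMT1 at -0.05 (edgeR adjusted p = 0.203) and MORC2 at 0.07. For the sums the trend was fitted on the sums themselves and not on pairs. Between bins, MORC2 alone of the 7 genes with such pairs passed, beside 27.2% of all genes, with a log2 fold change of 0.21 (edgeR adjusted p = 0.0086). That sum holds the called MORC2 pair: 535 of 2939 and 442 of 3510 knockdown contacts, 300 of 3137 and 364 of 3199 control contacts. It passed again with the trend removed (0.19, edgeR adjusted p = 0.026), but not without knockdown library 1 (edgeR adjusted p = 0.142). SETDB1 missed the threshold with TMM (0.12, edgeR adjusted p = 0.082) and passed with the trend removed (0.18, edgeR adjusted p = 0.011), beside 19.6% of all genes. With TMM and 1 library left out, its value was 0.16 without control library 1, which passed (edgeR adjusted p = 0.0188), and 0.06 without control library 2, which did not (edgeR adjusted p = 0.467). It did not pass without knockdown library 1 or 2 either (edgeR adjusted p of 0.339 and 0.23). When only pairs with its start bin were summed, the SETDB1 value was 0.35 with TMM (edgeR adjusted p = 0.000886). The start-bin sum holds the ARNT pair and the pair within the gene, neither of which passed with the trend removed. It was not refitted with the trend removed or with a library left out, and no share of all genes was computed for it.

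A gene's sums can also be set against each other within a library, which needs no scaling between libraries. Of the listed contacts of SETDB1, 27.2% and 26.1% joined different bins in knockdown libraries, against 22.7% and 22.2% in control libraries. For EHMT1 the share was 23.8% and 23.7% in knockdown libraries, against 19.9% and 19.4% in control libraries. For MORC2 it was 38.0% and 36.2% in knockdown libraries, against 33.6% and 33.2% in control libraries. Both knockdown libraries lay above both control libraries at these genes and at 6 of the 7 with both kinds of pair, beside 74.9% of 14884 genes. ATF7IP was the exception, with 5.70% and 7.07% in knockdown libraries, against 5.78% and 8.07% in control libraries, where the groups overlapped. The median difference was 3.33 percentage points over the 7 genes and 2.32 over all genes. Over the whole list, contacts between bins took a larger share in knockdown cells too, since those within a bin made up 83.8% of the counts of each knockdown library, against 84.9% of each control library.

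**Figure D5:**
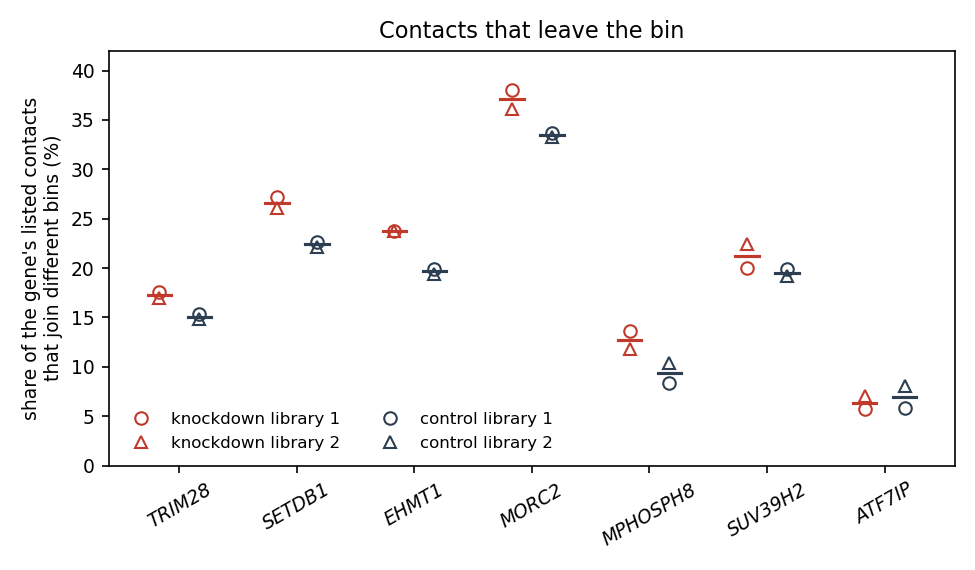
Share of each gene's listed contacts that join different bins, in percent, for the 7 genes with both kinds of pair. Circles and triangles are libraries 1 and 2, knockdown left of control, and bars are the mean of the 2 libraries. Both knockdown libraries lie above both control libraries at 6 genes, and ATF7IP is the exception.

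Among 27 further genes of these pathways, 26 had a listed pair. With TMM, 12 of the 26 had a pair past the threshold, 46.2% beside 57.4% of all genes: 3 with pairs only higher, 7 only lower and 2 both. With the trend removed 8 did, 30.8% beside 37.7%. Of these genes, 6 had a pair that passed in the same direction under both scalings, and 5 of them are described. Among partners of the methyltransferases, the chromodomain protein CDYL rose at a pair 50 kb apart (log2 fold change 0.75, edgeR adjusted p = 0.0113, and 0.66, edgeR adjusted p = 0.047, with the trend removed). The level of that pair was low, with 1.86 and 2.05 CPM in knockdown libraries, against 1.17 and 1.16 CPM in control libraries. Of the 10 pairs of CDYL, 1 other fell with TMM and 1 with the trend removed, which were different pairs. ATF7IP2, a relative of ATF7IP, fell within a bin (-0.25, edgeR adjusted p = 0.0207, and -0.24, edgeR adjusted p = 0.0447, with the trend removed). ATRX, a chromatin remodeller that deposits histone H3.3 with DAXX at repeats, rose within a bin, with 3.31 and 3.50 CPM in knockdown libraries, against 2.01 and 2.16 CPM in control libraries (log2 fold change 0.71, edgeR adjusted p = 0.00229, and 0.63, edgeR adjusted p = 0.0101, with the trend removed). DNMT1, the maintenance DNA methyltransferase, fell at a pair 150 kb apart (-0.72, edgeR adjusted p = 0.0182, and -0.81, edgeR adjusted p = 0.0121, with the trend removed). Its level was low too, with 0.892 and 1.49 CPM in knockdown libraries, against 1.94 and 2.00 CPM in control libraries. ZC3HAV1, an RNA-binding protein that restricts LINE-1, rose at a pair 200 kb apart (0.76, edgeR adjusted p = 0.00627, and 0.67, edgeR adjusted p = 0.0256, with the trend removed). Each of these 5 pairs lost its call when a single knockdown library was left out: knockdown library 1 for DNMT1 and ZC3HAV1 (edgeR adjusted p of 0.528 and 0.181), knockdown library 2 for ATRX (0.0918), and either of them for CDYL and ATF7IP2 (up to 0.378). ATF7IP2 also lost it without control library 2 (edgeR adjusted p = 0.194), and the DNMT1 value was -0.40 without knockdown library 1 and -1.14 without knockdown library 2.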

How the data were processed

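Micro-C contacts came from 2 knockdown and 2 control libraries of SH-SY5Y cells. HiC-Pro and hg38 are named, without versions, per the submitters' processing notes. The authors' deposited table gives raw contact counts per library for pairs of 50 kb bins, each bin by its middle (± 25 kb). Per the file headers it also holds log2 values of the fold change and of the mean abundance, an F score, a p-value and its adjusted p-value, all the authors' own. The list starts at an authors' mean abundance of -0.01, so library totals are those of the list and not the full depth.

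All 89239 pairs entered one edgeR 4.0.16 quasi-likelihood fit (glmQLFit, glmQLFTest; limma 3.58.1 under R 4.3.3) after TMM scaling, with Benjamini-Hochberg adjustment of p-values and 0.05 as the threshold. No pair fell to filterByExpr, since even the smallest had 868 counts over the 4 libraries. TMM factors were 1.05 and 1.04 for knockdown libraries and 0.966 and 0.944 for control libraries, and the common dispersion was 0.00812. The SE of a log2 fold change is its size over the square root of F. The trend-removed scaling used loess offsets per library and gave fold changes with r = 0.999996 to the authors' across pairs, which are not independent replicates. The script was tested on simulated data. Gene bodies and upstream bases are those of RefSeq, GRCh38.p14. Python 3.11.15, pandas 2.3.3 and matplotlib 3.10.9 were used.

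Members, pathway list and rules were chosen with earlier results of these data known. All 9 silencing genes were named by rule, and of the 27 pathway genes the 6 with the largest fold change among those past the threshold in the same direction under both scalings. One item that this rule named is not reported here. Alternatives were the trend removed, DESeq2 1.42.0 (its test, or its size factors in edgeR), TMM within distance classes, a replicate block, no filter, leaving out each library, a threshold of 0.01, the authors' values and start bins only. Trend removal with a block or with a library left out was added after seeing the data. The labels do not say that equal library numbers pair the samples. Over pairs, control 1 minus control 2 and knockdown 1 minus knockdown 2 correlated at r = 0.0193. This is a description with no test, and it cannot settle whether libraries were paired.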

Additional observations from a re-analysis of the deposited data

How the results depend on the processing

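The 13 pairs past the threshold at these genes became 7 with the abundance trend removed, 6 by the authors' deposited values and 4 of 22 when only bins with the gene start counted. TRIM28 had no gene start among those used, so none of its pairs entered a start-bin count. It had 2 pairs past the threshold with TMM. By the authors' values 9819 of all 89239 pairs passed. No share over all genes was computed for start bins or for genes by the authors' values. None was computed for genes with a library left out or with the replicate block either, so all those counts have no background here. With 1 library left out they numbered 6 to 12, and 4 to 8 with the trend removed too. The 5 genes with such a pair became 3 with the trend removed, 3 by the authors' values, 3 of 7 by start bins, 3 to 6 with a library left out and 2 to 4 with the trend removed too. All 14469 pairs past the threshold became 8738 at 0.01, 4910 to 16764 with a library left out and 1751, 3032, 8903 and 11685 with the trend removed too. The 12 pathway genes became 7 of 23 by start bins, 5 to 14 with a library left out and 0 to 13 with the trend removed too. For summed contacts within bins, the 3 genes became 0 with the trend removed, 4 of 7 by start bins and 1 to 3 with a library left out. For those between bins, 1 gene became 2 with the trend removed, 2 of 5 by start bins and 0 to 2 with a library left out.

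With the replicate block the pairs numbered 14, or 7 at 3 genes with the trend removed too, and genes by sums between bins 2. Whether the library numbers pair the samples is not known.

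Direction turned at the 3′ bin of SETDB1, to 0.045 with the trend removed, 0.045 by the authors' values and 0.046 with the block added, and to 0.0904 and 0.11 with knockdown library 1 or control library 1 left out as well. At the TRIM28 bin chr19:58500001-58550000 it turned to 0.0166 with the trend removed and control library 2 left out. For the TRIM28 sum within bins it turned to 0.00691 with the trend removed. The cause was not tested. Of the planned comparisons with an alternative, 165 kept direction and side of the threshold, 42 lost the call, 4 gained it and 3 turned. Part of the 165 could not differ. The filter removed no pair, start-bin values of single pairs repeat the main ones, and the threshold of 0.01 leaves the fold change as it was. With 2 libraries a group, small changes may not pass, and leaving 1 out assumes that the lone library varies like the other group.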
